A study of Mus musculus with 12 samples.

Results

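Regions of the genome whose 5-hydroxymethylcytosine (5-hmC) signal differed between mouse dorsal root ganglia after a peripheral nerve lesion and uninjured ganglia were examined. The members were all regions that the authors listed between these 2 groups, 12244 of the 70430 regions in their 3 tables of paired comparisons. The 108 regions in mitochondrial DNA, pericentromeric satellite, Sfi1 and the ribosomal gene Rn45s were set aside as high-copy sequence, and the other 12136 are described here. Of these, 6069 were higher after the lesion (50% of the listed regions) and 6067 were lower (50%).

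In the group called PL, the sciatic nerve had been lesioned and ganglia of lumbar levels 4 to 6 were taken 24 h later. The control ganglia were the uninjured ones on the other side of the same PL animals, and no ganglia of unoperated animals are among the groups. The study also held a group with a dorsal column lesion (DCL), which cuts the central branch of the same neurons inside the spinal cord, whose values are set beside those of PL at the end. Each group had 3 5-hmC libraries, each from the pooled ganglia of 3 animals, so spread between libraries is spread between pools. The labels give neither strain, age nor sex, and they match no control pool to a PL pool. DNA was sheared to about 250 bp, fragments with 5-hmC were tagged by a glucosyltransferase with a sugar that carries biotin, captured on streptavidin and sequenced. A whole ganglion holds sensory neurons, satellite glia, Schwann cells, vessels and immune cells, so a change within a cell type and a change in the share of cell types cannot be told apart.

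5-hmC is made from 5-methylcytosine by the TET dioxygenases, mostly at CG dinucleotides. It is abundant in neurons, where it lies mainly in the bodies of active genes, and it can be a stable mark or a step in the removal of methylation. Sensory neurons of these ganglia send a branch to the periphery and a branch into the spinal cord. After injury of the peripheral branch they switch on a growth programme that includes Atf3, Jun, Stat3, Sox11, Gap43 and neuropeptide genes, and the axon can regrow.

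Regions nearest a gene start were mostly higher after PL, 39 of the 52 in the proximal promoter class. For genes in this class, the promoter sequences below show how much CG, the main substrate of the mark, the start sites hold. They are the genes with the smallest adjusted p in the authors' deposited table among protein-coding genes with exactly 1 RefSeq promoter, 3 with a higher region and 2 with a lower one. Each sequence runs from 250 bases before to 50 after the gene start (RefSeq, GRCm38.p6), 5′ to 3′, with each CG in capitals. The regions themselves are on the mm9 build, for which no sequence was used, so the 2 sets of positions are not compared.
Upk3b promoter: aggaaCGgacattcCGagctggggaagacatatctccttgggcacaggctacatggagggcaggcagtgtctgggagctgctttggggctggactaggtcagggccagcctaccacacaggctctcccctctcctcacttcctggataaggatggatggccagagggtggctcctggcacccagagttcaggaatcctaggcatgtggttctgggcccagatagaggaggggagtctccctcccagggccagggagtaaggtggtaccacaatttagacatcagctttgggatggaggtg
Itgb7 promoter: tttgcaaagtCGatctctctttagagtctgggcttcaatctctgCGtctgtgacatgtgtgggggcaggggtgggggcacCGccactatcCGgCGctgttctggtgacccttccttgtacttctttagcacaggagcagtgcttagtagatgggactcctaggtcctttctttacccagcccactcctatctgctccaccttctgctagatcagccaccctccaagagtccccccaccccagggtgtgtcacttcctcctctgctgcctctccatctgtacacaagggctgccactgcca
Ociad2 promoter: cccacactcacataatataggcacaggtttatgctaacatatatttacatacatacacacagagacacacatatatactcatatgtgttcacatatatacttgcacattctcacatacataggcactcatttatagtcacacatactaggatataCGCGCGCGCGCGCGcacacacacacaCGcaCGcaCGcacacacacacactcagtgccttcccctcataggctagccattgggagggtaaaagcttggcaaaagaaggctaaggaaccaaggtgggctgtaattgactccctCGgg
Olfr750 promoter: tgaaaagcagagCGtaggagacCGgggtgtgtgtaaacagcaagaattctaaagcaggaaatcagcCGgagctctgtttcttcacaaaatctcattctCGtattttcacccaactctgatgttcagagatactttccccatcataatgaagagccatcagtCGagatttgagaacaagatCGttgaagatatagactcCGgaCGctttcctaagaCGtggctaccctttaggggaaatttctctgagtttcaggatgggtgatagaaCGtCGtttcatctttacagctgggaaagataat
Ndufb8 promoter: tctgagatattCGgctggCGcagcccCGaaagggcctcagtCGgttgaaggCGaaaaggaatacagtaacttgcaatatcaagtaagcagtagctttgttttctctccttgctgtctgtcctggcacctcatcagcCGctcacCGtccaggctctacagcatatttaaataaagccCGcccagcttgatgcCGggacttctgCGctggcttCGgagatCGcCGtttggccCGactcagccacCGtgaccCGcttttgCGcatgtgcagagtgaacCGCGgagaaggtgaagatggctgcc
On GRCm38.p6 these lie on chr5:136038246-136038545 (plus strand), chr15:102231886-102232185 (minus), chr5:73338898-73339197 (minus), chr14:51071393-51071692 (minus) and chr19:44555393-44555692 (minus). They hold 2, 5, 11, 11 and 19 CG, against a median of 7 over all 32851 promoters of the table, of which 94.6% hold at least 1. In the Ociad2 promoter, 7 of the 11 CG stand together in an uninterrupted CG repeat. CG-poor and CG-rich starts were thus both among the members.

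MicroRNA genes carried 44 of the listed regions. The mature sequences of 4 of them, chosen after their values were seen because their targets are well studied, are given with the seed (bases 2 to 8, which pair with target mRNAs) in capitals (RefSeq, GRCm38.p6).
mmu-miR-29b-3p: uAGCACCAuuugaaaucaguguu
mmu-miR-204-5p: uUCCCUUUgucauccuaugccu
mmu-miR-193a-3p: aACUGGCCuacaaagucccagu
mmu-miR-33-5p: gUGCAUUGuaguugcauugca
All 4 seeds differ. Of 43 microRNA genes with a region, 36 had a mature sequence among those used here. The others, Mir1a-2 and Mir5112 among them, were left out of the seed counts, which does not show that RefSeq lacks their sequences. The 36 genes gave 54 mature sequences and 53 different seeds. Within this set, the only seed present more than once was UGGUUUC, in mmu-miR-6338 and mmu-miR-29b-2-5p. The regions of these genes are described with the promoters below.

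The values are the authors' normalised read counts of a region, which behaved as its reads times a factor of the library. In higher regions the 3 PL libraries had medians of 22.7, 24.0 and 24.8 and the control libraries 10.5, 10.0 and 9.80. In lower regions the PL medians were 6.35, 6.0 and 7.1 and the control medians 19.6 to 21.0. The median ratio of group averages was 2.41 in higher regions, and the median was 3.15-fold lower in lower ones. Group averages were at least 2-fold apart in 86.2% of higher and 98.3% of lower regions, so that lower regions differed by more on this scale.

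All 3 PL libraries lay beyond all 3 controls in 11896 regions (98%), 5830 of the higher (96.1%) and 6066 of the 6067 lower ones. These counts describe regions that the authors chose for differing on these same values, and no test of their own was made. The smallest two-sided p that 3 libraries against 3 allow in an exact permutation test of 1 region is 0.1. The authors' deposited table gives an adjusted p under 0.01 for 5947 regions (49%), 2805 higher and 3142 lower, and one of 0.05 or more for 118 higher and 58 lower regions.

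**Figure D1:**
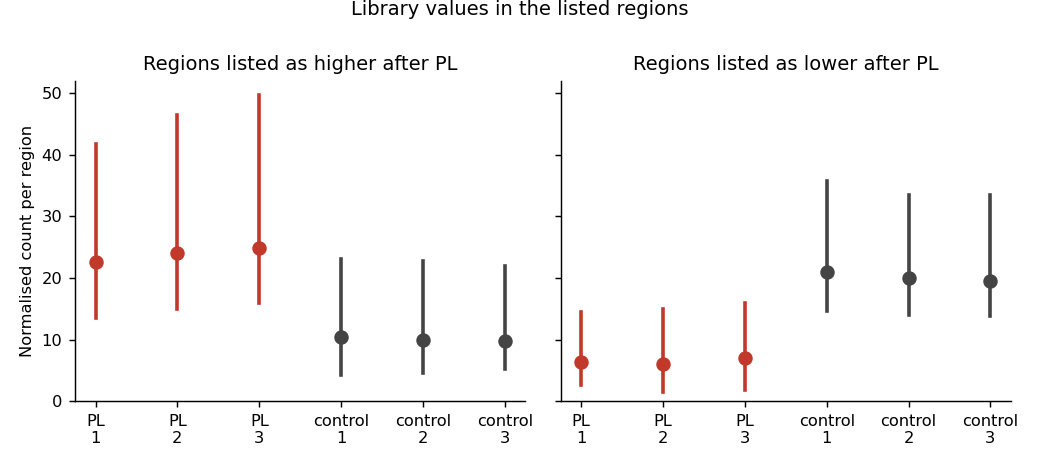
Median normalised count (points) and the range from the 10th to the 90th percentile (lines) of each library, over the 6069 regions listed as higher and the 6067 listed as lower after PL; libraries are numbered in the order of the table. The medians of higher regions are 22.7 to 24.8 in PL and 9.80 to 10.5 in control, and the ranges of the 2 groups overlap because regions differ in level.

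Low regions rested on few reads. Low values were whole multiples of the value of 1 read in all libraries (100% within a tolerance of 0.1 of a step), and that value was 0.907, 1.5 and 1.77 in the PL libraries against 1.05, 0.668 and 0.576 in the controls. The same value therefore rested on fewer reads in the second- and third-listed PL libraries than in any control. A lower region had a median of 7, 4 and 4 reads in the PL libraries and 20, 30 and 34 in the controls. The PL libraries held no read in 39, 299 and 396 of the lower regions, the controls in none. Within a group, the coefficient of variation of the 3 libraries had a median of 45.1% for PL and 12.4% for control in lower regions, and of 20.9% and 23.5% in higher ones. Library totals are not in the tables, so depth beyond these steps is unknown.

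A difference between the PL libraries stood beside the higher regions. All 108 high-copy regions set aside were higher after PL, and in them the libraries differed widely within the group. The 4 mitochondrial regions had medians of 401, 1657 and 2528 in the 3 PL libraries against 259 to 403 in the controls, and the 32 pericentromeric ones 111, 165 and 249 against 82.1, 62.8 and 70.6. In both, the first-listed PL library was the closest to the controls and the third was the highest. The 67 Sfi1 regions had 49.0, 93.0 and 115 against 43.1, 40.1 and 42.7, in the same order, while the 5 Rn45s regions had 257, 658 and 467 against 174, 234 and 156, with the second-listed PL library the highest. The 29 kept regions with a library above 200 were all higher too. The highest (chromosome 2, 98507281 to 98507680) had 7595, 13480 and 24598 after PL against 7034, 5004 and 6781 in control, above every region set aside. Its PL libraries stood in the mitochondrial order. Others did not, as on chromosome X (166431901 to 166432160), with 288, 415 and 216 against 222, 244 and 214. Regions at the level of high-copy sequence thus remain among the higher ones. Among the kept higher regions, 239 did not have all libraries apart. Without the third PL library, 5928 of the 6069 higher regions were still at least 1.5-fold apart in the same direction, and so were 6066 of the 6067 lower ones. The part that this library plays in single regions was not tested, and its value is given wherever it stands apart.

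Where the regions lay differed between directions. Of the 52 proximal promoter regions, all within 246 bp of the start of the assigned transcript, 39 were higher and 13 lower (75% higher). Further out the share of higher regions was 54.3% in the class called Promoter1k (125 higher, 105 lower) and 45.6% in Promoter3k (302 higher, 360 lower). Gene bodies held 3348 higher and 3627 lower regions (48.0% higher), other intergenic sequence 54.2% higher, and gene deserts 47.5%. Higher regions were thus the larger number next to the start and lower ones the larger number in the outer promoter class.

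Within gene bodies, direction went with gene length and with position along the gene. Regions in genes under 20 kb were higher in 65.0% (380 higher, 205 lower), in genes of 20 to 50 kb in 52.8%, of 50 to 100 kb in 49.6%, of 100 to 200 kb in 43.9%, of 200 to 500 kb in 41.2% and above 500 kb in 44.9%. Over gene-body regions, the median length of the assigned gene was 90.7 kb for higher and 121 kb for lower ones, a gene being counted once per region. When each gene was divided into 5 equal parts from start to end, 41.0% of regions in the first part were higher, then 45.0%, 47.5%, 52.0% and 53.3% in the last. By distance from the start in bp the order was the opposite, with 54.6% higher at 0 to 5 kb, 50.6% at 5 to 20 kb, 47.4% at 20 to 100 kb and 45.2% beyond, and a median distance of 37.2 kb for higher and 46.7 kb for lower regions. Sequence close to a start falls in the promoter classes (a Stat5b region at 2989 bp is Promoter3k, a Klf4 region at 3137 bp gene body). The shortest genes therefore have little or no gene body in their first part. The class at 0 to 5 kb likewise holds mainly its outer stretch. Relative position and gene length were not crossed, so the rise along the gene cannot be told apart from this difference in gene length. These are shares over regions, which share libraries and genes, and they carry no test.

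**Figure D2:**
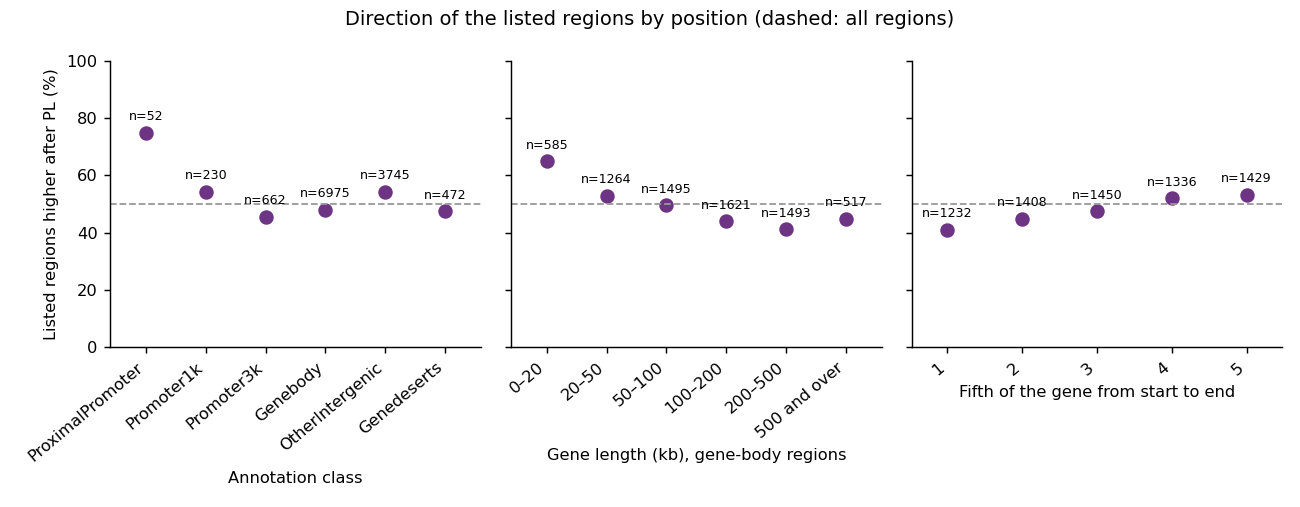
Percent of listed regions that were higher after PL (y axis) by annotation class, by gene length in kb for gene-body regions, and by which of 5 equal parts of the gene a region lies in; n is the number of regions and the dashed line is all regions (50%). The share is 75% in proximal promoters and 45.6% in Promoter3k, 65.0% in genes under 20 kb and 41.2% at 200 to 500 kb, and 41.0% in the first part of a gene and 53.3% in the last.

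Chromosomes also differed. The share of higher regions was 60.8% on chromosome X (59 higher, 38 lower), 59.8% on chromosome 11 and 58.2% on chromosome 7, and it was lowest on chromosomes 16 (41.9%), 3 (42.3%) and 14 (42.6%). Regions close to each other went the same way somewhat more often. Of 82 neighbouring pairs at most 500 bp apart, 62.2% had the same direction, and of 203 pairs 500 to 2000 bp apart 58.6%, against 53.0% to 54.1% at larger gaps. An example of opposite directions close by is Dscam, an adhesion protein of axons and dendrites, chosen after its values were seen. A region with 20.8, 15 and 16 after PL against 3.16, 8.68 and 6.34 in control (chromosome 16, 96864401 to 96864600) lay beside another with 5.44, 6.0 and 1.77 against 18.9, 13.4 and 19.6 (96864701 to 96864900). Neither pair of groups overlapped, and the higher group changed between neighbours.

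Regions were assigned to 4734 genes, 1972 with only higher regions, 1827 with only lower ones and 935 with both. Most genes (3132, or 66.2%) had 1 region and 199 had 5 or more. Of all 21896 protein-coding genes, 20.2% had a region, 12.6% a higher one, 11.8% a lower one and 4.17% both. With these genes split by length into 4 classes of equal number, 2.56%, 8.7%, 19.3% and 50.4% had a region from the shortest to the longest class. A higher region was found in 1.64%, 5.85%, 11.3% and 31.6% of them and a lower one in 0.932%, 3.2%, 9.52% and 33.6%. Higher regions were thus in more genes than lower ones in the 3 shorter classes and in fewer in the longest.

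Several long genes carried a run of regions that were all lower. Genes with only lower regions numbered 107 at 3 or more regions and 14 at 5 or more, while genes with only higher regions numbered 63 and 1. Pdzrn3, a ubiquitin ligase with PDZ domains that acts at the neuromuscular junction, had the most, 9 regions spread from 1431 to 217691 bp after its start, with log2 ratios from -2.62 to -1.33. Its strongest had 4.53, 1.5 and 1.77 after PL against 17.9, 17.4 and 12.7 in control (chromosome 6, 101229801 to 101230000), and its last 3.63, 6.0 and 3.55 against 22.1, 18 and 16.1. In all 9 regions every PL library was below every control.

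The transcription factors Sox6 and Tcf4 had 8 lower regions each. Sox6, an SRY-related factor that directs cell fate in several lineages, had 2.72, 1.5 and 3.55 against 17.9, 13.4 and 12.7 in its strongest region (chromosome 7, 122772901 to 122773120). Tcf4, a basic helix-loop-helix factor of neuronal development, had 2.72, 3.0 and 5.32 against 18.9, 22.7 and 14.4 (chromosome 18, 69553601 to 69553860). Nfib, of the nuclear factor I family, had 6 lower regions, among them 9.07, 3.0 and 1.77 against 15.8, 22.7 and 17.3 (chromosome 4, 82093901 to 82094100). All PL libraries were below all controls in these regions.

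Adgrl3 (latrophilin 3, an adhesion receptor of synapses), Dock9 (an activator of the GTPase Cdc42), the protocadherin Pcdh9, the long non-coding RNA gene Mir99ahg and 2610307P16Rik, for which no role is given, also had 6 lower regions each and none higher. In Dock9 the region at chromosome 14, 121978981 to 121979260, had 17.2, 7.5 and 14.2 after PL against 36.8, 36.7 and 37.5. The controls there were within 1 count of each other and the PL pools were spread more widely. The Adgrl3 region at chromosome 5, 81822181 to 81822380, had 4.53, 4.5 and 5.32 against 19.99, 14.7 and 14.4, with PL the tighter group.

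Runs of only higher regions were shorter. St6galnac3, a sialyltransferase of glycolipids, had 5, with log2 ratios from 0.98 to 1.66, for example 19, 27 and 17.7 after PL against 3.16, 6.68 and 10.4 in control (chromosome 3, 153051601 to 153051800). Cdh23 (the cadherin of hair-cell tip links), Dlg5 (a scaffold of the membrane-associated guanylate kinase family), Dnah17 (an axonemal dynein heavy chain), Ntm (neurotrimin, an adhesion protein of neurons), Slc4a8 (a sodium bicarbonate transporter) and Tbc1d22a (with a Rab GTPase-activating domain) had 4 each. In Dlg5 the region at chromosome 14, 25038881 to 25039120, had 59.8, 55.5 and 55 against 34.7, 27.4 and 33.4, which is 1.78-fold higher with pools close together. Ntm had 12.7, 13.5 and 14.2 against 5.26, 1.34 and 5.19 at 755574 bp from its start (chromosome 9, 29015041 to 29015240). All groups were apart in these genes except in 1 Slc4a8 region, with 39, 27 and 14.2 against 13.7, 16 and 8.65, where the third-listed PL library fell between the controls. Ankfn1, with 3 higher regions, completed the rule by order of name among genes with 3.

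The genes with the most regions had both directions. Nav2, a microtubule-binding navigator protein that responds to retinoic acid, had 8 higher and 6 lower regions, Park2 (parkin, a ubiquitin ligase of mitochondrial quality control) 9 and 5, Ptprg (a receptor tyrosine phosphatase) 2 and 12, Gpc6 (a glypican) 3 and 10 and Rbms3 (an RNA-binding protein) 6 and 7. In Park2 the lower region at chromosome 17, 11512481 to 11512700, had 2.72, 4.5 and 0 after PL against 19.99, 13.4 and 13.8, and the higher one at 12022521 to 12022740 had 12.7, 25.5 and 14.2 against 4.21, 4.68 and 4.61. All 14 Park2 regions had the groups apart. In Nav2, 3 of the 8 higher regions did not, and 2 of them rested on the third-listed PL library, with 15.4, 18 and 65.6 against 12.6, 13.4 and 18.4 and 19, 16.5 and 58.6 against 17.9, 10.7 and 15. A Gpc6 region with 19, 18 and 62.1 against 13.7, 15.4 and 14.4 was apart but had the same library far above the others.

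**Figure D3:**
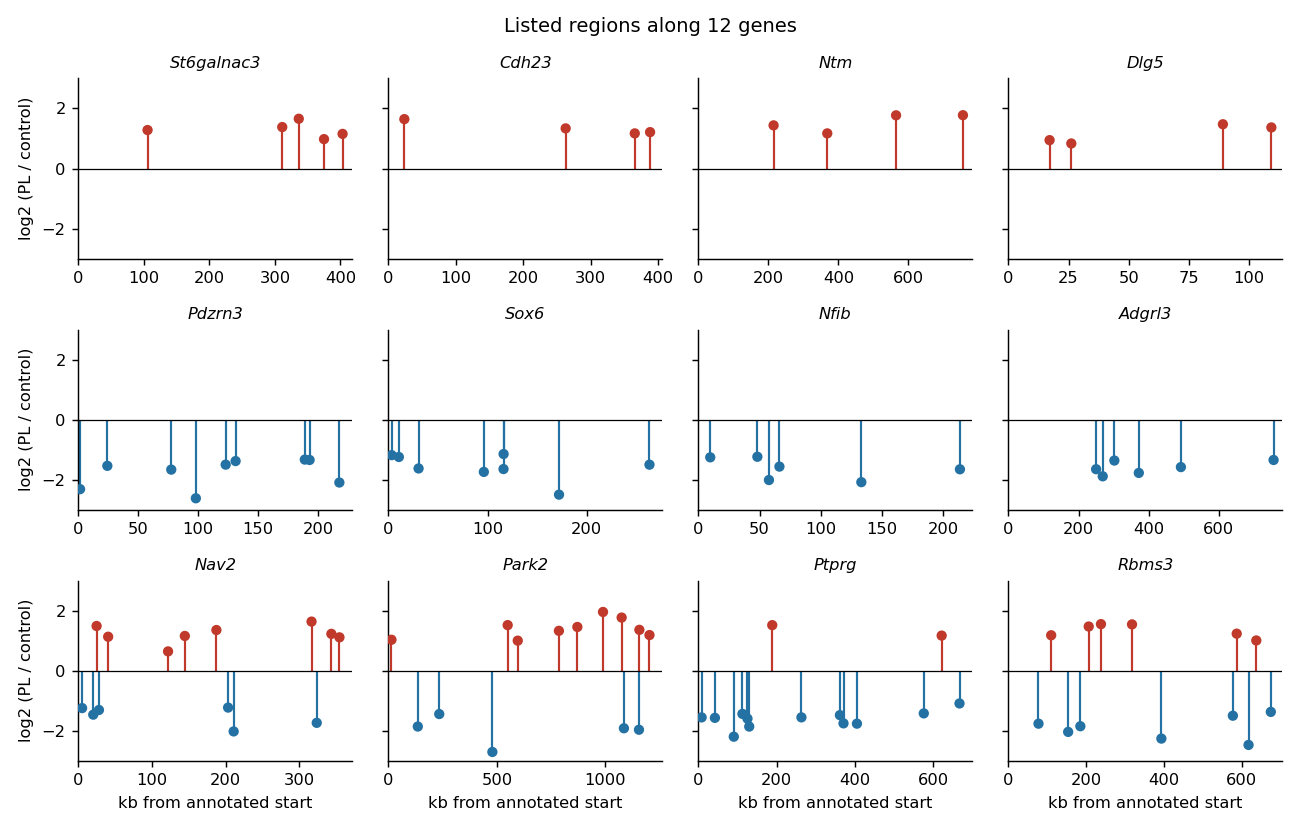
Log2 ratio of the group averages, PL over control (y axis), of each listed region along 12 genes, by distance in kb from the start of the transcript that the table assigns to the region; red is higher and blue lower after PL. The top row has only higher regions, the middle row only lower ones, and Nav2, Park2, Ptprg and Rbms3 have both, with 8, 9, 2 and 6 higher and 6, 5, 12 and 7 lower regions.

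Regions with some of the smallest adjusted p in the authors' deposited table are named next, first in gene bodies. Yipf1, a Golgi membrane protein, had 42.6, 31.5 and 35.5 after PL against 12.6, 11.4 and 14.4 in control (chromosome 4, 107026801 to 107027120). Dis3l2, an exoribonuclease that degrades uridylated RNAs, had 39.9, 51 and 42.6 against 12.6, 14.7 and 20.8 (chromosome 1, 88919841 to 88920200). Foxn1, a transcription factor of thymus and skin epithelium, had 31.7, 21 and 23.1 against 6.31, 7.35 and 6.34 (chromosome 11, 78183981 to 78184320). These were 2.85-fold, 2.78-fold and 3.79-fold higher, with every PL pool at least 1.5 times above every control. 2900026A02Rik had a high level in both groups, 103, 91.5 and 88.7 against 50.5, 56.8 and 53.6 (chromosome 5, 113581781 to 113582140), and was 1.76-fold higher. The authors' deposited table gives an adjusted p of 0.000151 for Yipf1, 0.00019 for 2900026A02Rik, 0.00029 for Dis3l2 and 0.000296 for Foxn1.

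Among the lower gene-body regions, Nol9, a polynucleotide kinase that processes ribosomal RNA, had 4.53, 1.5 and 8.87 after PL against 27.4, 26 and 29.97 in control (chromosome 4, 151420681 to 151421000). It was 5.6-fold lower, with PL pools unequal and all below the controls. Il34, a cytokine that binds the receptor of colony-stimulating factor 1, had 23.6, 33 and 40.8 against 71.5, 67.5 and 72.6 (chromosome 8, 113316181 to 113316600), 2.17-fold lower. In Il34 the controls lay close together and the first-listed PL pool was the lowest. Eftud1, a GTPase of ribosome maturation, was nearly without reads after PL, at 0, 3.0 and 0 against 17.9, 12 and 16.1 (chromosome 7, 89857621 to 89857860). The only region with no read in any PL library was in Kcnd2, a potassium channel of the A-type current, with 17.9, 12 and 13.3 in control (chromosome 6, 21658561 to 21658760). Its PL level is a count of 0 in 3 libraries, so no ratio is given. The authors' deposited table gives an adjusted p of 1.54e-05 for Nol9, 0.0001 for Il34 and 0.00035 for Eftud1.

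Intergenic regions reached the same size. On chromosome 2 a region at 75244661 to 75245060 had 38.1, 33 and 33.7 after PL against 12.6, 12 and 10.4 in control, and on chromosome 3 a region at 85876181 to 85876560 had 11.8, 6.0 and 1.77 against 30.5, 30.7 and 34.6. The first was 2.99-fold higher and the second 4.9-fold lower, both with the groups apart. A gene desert region on chromosome 2 (47996441 to 47996720) had 1.81, 3.0 and 0 against 18.9, 18.7 and 15, which is 10.9-fold lower on few PL reads. The tables name no gene for such regions.

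In the promoter classes, Rasl11b, a Ras-like small GTPase, had 113, 114 and 90.5 after PL against 66.3, 60.1 and 52.4 in control, 2799 bp after the start (chromosome 5, 74594021 to 74594280). Hyou1, a chaperone of the endoplasmic reticulum, had 30.8, 24 and 28.4 against 11.6, 8.02 and 9.22 at 1507 bp. Dctn6, a subunit of the dynactin complex that links dynein to its cargo, had 14.5, 13.5 and 21.3 against 3.16, 1.34 and 4.03 at 1784 bp before the start. These were 1.78-fold, 2.89-fold and 5.78-fold higher, with the PL pools above all controls. Asgr2, a subunit of the asialoglycoprotein receptor, had 29, 15 and 28.4 against 7.36, 7.35 and 4.61, and S100a5, a calcium-binding protein, had 15.4, 15 and 14.2 against 1.05, 2.67 and 4.03. In S100a5 the PL pools were close together and the controls rested on few reads.

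Lower promoter regions included Lrch3, a leucine-rich repeat protein, with 14.5, 10.5 and 23.1 after PL against 44.2, 46.8 and 45 in control, 796 bp before the start (chromosome 16, 32913201 to 32913580). Cradd, an adaptor with a death domain, had 6.35, 1.5 and 3.55 against 26.3, 21.4 and 20.8, 2361 bp after the start. Usp24, a deubiquitinase, had 1.81, 0 and 0 against 14.7, 12.7 and 12.1. The groups were apart in all of these, and Usp24 had reads in only 1 PL library. Mrps21, of the mitochondrial ribosome, had 9.07, 3.0 and 1.77 against 21, 26 and 21.9, and the tubby-like gene Tulp4 had 22.7, 12 and 16 against 46.3, 46.1 and 42.6. Lrch3 was 2.83-fold, Cradd 6.0-fold, Mrps21 4.98-fold and Tulp4 2.67-fold lower.

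Within the proximal promoter class, the genes whose sequences were printed had these values. Upk3b, a uroplakin that also marks mesothelium, had 32.6, 40.5 and 16 after PL against 12.6, 4.68 and 13.3 in control. Itgb7, a leukocyte integrin subunit, had 24.5, 25.5 and 24.8 against 10.5, 8.02 and 12.1, and Ociad2, a mitochondrial protein, had 54.4, 33 and 53.2 against 26.3, 26.7 and 20.8. All PL pools were above all controls, and in Upk3b the third-listed PL library was the lowest, close to the controls. Olfr750, an odorant receptor gene, had 6.35, 7.5 and 7.1 against 17.9, 23.4 and 27.7, and Ndufb8, a subunit of respiratory complex I, had 0.91, 7.5 and 5.32 against 21, 12 and 16.1. Both were lower in every pool, Olfr750 by 3.29-fold and Ndufb8 by 3.58-fold.

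Other proximal promoters, also chosen after their values were seen for their roles in the ganglion or in immunity, went both ways. Etv1, an ETS factor of proprioceptive neurons, had 4.53, 7.5 and 12.4 after PL against 17.9, 23.4 and 20.2 in control at 62 bp from its start. Ccl2, a chemokine that attracts monocytes, had 14.5, 16.5 and 21.3 against 3.16, 8.68 and 6.34 at 51 bp, and Tmem173 (STING, the sensor of cytosolic dinucleotides) had 15.4, 16.5 and 35.5 against 4.21, 12 and 4.03. Etv1 was lower and the other 2 higher with groups apart, and Tmem173 was carried most by the third-listed PL library. Tsc22d1, a transcriptional regulator, had 4.53, 1.5 and 3.55 against 15.8, 14 and 16.1 and was 4.8-fold lower.

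Sequence of the promoters was summarised by letters. Genes with only higher promoter-class regions had 434 promoters in the RefSeq table (308 genes) with a median of 12 CG, and genes with only lower ones had 469 (332 genes) with a median of 17, against 7 over all promoters. The motif ACGTG was found on either strand in 21.0% and 19.8% of these and in 19.6% of all promoters. The AP-1 motif TGANTCA was in 5.30% and 8.10% against 7.81% of all, and the cyclic AMP response motif TGACGTCA in 0.922% and 2.56% against 1.79%. Overlaps between motifs were not removed. A match gives these letters in a window of 300 bases and nothing about binding.

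MicroRNA genes had 21 higher and 23 lower regions, 40 of them in promoter classes (19 higher, 21 lower). Over all listed regions 7.78% were in promoter classes. Very short genes have little or no gene body, so the class of a microRNA region follows mainly from gene length. Distances are from the start of the annotated gene, which was not checked to be a start of transcription. The share of all microRNA genes with a region was not computed. The 4 genes whose mature sequences were printed all had a lower region with groups apart. Mir29b-2, of the miR-29 family that targets collagens and DNA methyltransferases, had 7.25, 6.0 and 5.32 after PL against 21, 20.04 and 18.4 in control, 2764 bp before its start (chromosome 1, 196860361 to 196860580). Mir204, which lies within the channel gene Trpm3, had 9.97, 15 and 10.6 against 32.6, 27.4 and 25.4 at 1455 bp (chromosome 19, 22823541 to 22823740). Mir193a had 5.44, 10.5 and 1.77 against 18.9, 20.04 and 17.9, and Mir33, which lies within the sterol regulator gene Srebf2, had 2.72, 4.5 and 7.1 against 14.7, 16 and 16.1 at 272 bp. The ratios were 3.21-fold, 2.4-fold, 3.21-fold and 3.28-fold lower. Regions inside host genes belong to both genes and cannot be assigned to either.

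Among higher regions of microRNA genes, also chosen after their values were seen, Mir7043 had 33.6, 49.5 and 47.9 after PL against 24.2, 20.04 and 19 in control and Mir6989 38.1, 39 and 31.9 against 17.9, 17.4 and 15.6. Mir101c had the highest level, 71.6, 139 and 268 against 57.9, 44.1 and 54.8 (chromosome 9, 3037781 to 3038360). Its PL libraries stood in the same order as in the mitochondrial, pericentromeric and Sfi1 regions set aside, with the first near the controls and the third highest. Mir1195, Mir5098 and Mir3471-1 are placed by the table on another chromosome than in RefSeq and are uncertain.

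Gene groups were described by counts over 24 lists with 1119 genes, which overlap in members, and no list was tested. Their shares are read against the 20.2% of all protein-coding genes and the 50.4% of the longest class. Beside the members named by rule, Anxa1, Asic3, Ctnnb1, Dcc, Dnmt3a, Ep300, Ephb1, Hif1a, Il1r1, Lrp6, Mtor, Osm, P2rx3, Robo1, Scn10a and Slit2 were chosen after their values were seen. Of 15 injury genes named in every case, Atf3, Jun, Sox11, Smad1, Klf6, Arg1, Gal, Npy, Tet1 and Tet2 had no region. Gap43, a growth cone protein, had 13.6, 27 and 40.8 after PL against 5.26, 12.7 and 11.5 in control, and the neurotrophin Bdnf 29, 27 and 17.7 against 12.6, 11.4 and 10.4 at 672 bp after a start. Tet3, which makes the mark, had a higher region with 29.9, 21 and 26.6 against 8.42, 7.35 and 14.4 and a lower one with 14.5, 3.0 and 14.2 against 25.2, 28 and 28.2. The groups were apart in all 4 regions. In Gap43 the first-listed PL library was close to the controls and the third the highest, as in the mitochondrial, pericentromeric and Sfi1 regions set aside.

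Of the 33 injury transcription factors in the list, 7 had a region, 0 only higher, 5 only lower and 2 both. Their regions had a median log2 ratio of -1.32, against -1.07 over all 7919 regions in genes (3814 higher, 4105 lower). Few listed ratios lie near 0 (10th percentile 0.954 in higher regions, 90th percentile -1.24 in lower ones). The median of a list therefore shows mainly which direction has more regions, and is no size of effect. Ion channel genes, with 28 higher and 30 lower regions, had -1.40, and lipid and mitochondrial genes, with 23 and 22, had 0.92. Klf7, a zinc finger factor that promotes axon growth, had 9.07, 1.5 and 3.55 after PL against 19.99, 20.04 and 17.3 in control (chromosome 1, 64161221 to 64161480), and 12.7, 24 and 16 against 36.8, 32.1 and 39.2 further along. Klf4, a related factor that restrains axon growth, had 9.97, 15 and 21.3 against 38.9, 40.7 and 32.8 (chromosome 4, 55542061 to 55542360), and Hif1a, the hypoxia factor, 5.44, 7.5 and 1.77 against 14.7, 18 and 17.9. PL pools were below controls in all 4 regions. Rarb, a retinoic acid receptor, had both, 40.8, 34.5 and 35.5 against 13.7, 21.4 and 16.1 in a higher region and 4.53, 7.5 and 7.1 against 24.2, 20.7 and 18.4 in a lower one.

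Growth cone and regeneration effectors had a region in 10 of 38 members, 5 only higher, 0 only lower and 5 both, with a median log2 ratio of 0.80. Dpysl5, a collapsin response mediator protein, had a higher region with 32.6, 45 and 33.7 after PL against 14.7, 19.4 and 16.7 in control (chromosome 5, 31055901 to 31056140) and a lower one at 31065341 with 5.44, 0 and 5.32 against 25.2, 20.7 and 12.7. Mmp16, a membrane-bound matrix protease, had 16.3, 18 and 21.3 against 4.21, 6.68 and 5.19 (chromosome 4, 17868581 to 17868820). The groups were apart in these, which was not so in Nrn1 (neuritin), where 23.6, 19.5 and 69.2 stood against 23.2, 14.7 and 16.7. There the second-listed PL library lay within the controls and the third far above all other libraries. Anxa1, an annexin that limits inflammation, had 13.6, 18 and 24.8 against 3.16, 6.01 and 7.49 in its promoter.

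Neurotrophin and GDNF signalling had a region in 14 of 38 members (3 only higher, 6 only lower, 5 both, median log2 ratio -1.25). The longest class of genes held 25 of the 38. Among receptors, Ntrk3 (TrkC, of proprioceptors) was higher, with 22.7, 18 and 16 after PL against 10.5, 6.68 and 5.19 in control, and Gfra1 (the GDNF co-receptor) had a higher region with 24.5, 18 and 26.6 against 10.5, 6.68 and 9.8 and a lower one with 3.63, 1.5 and 7.1 against 13.7, 15.4 and 13.8. Ntrk2 (TrkB) had 4.53, 12 and 8.87 against 22.1, 22.7 and 22.5 in its lower region with the smallest deposited adjusted p. Groups were apart in each of these. Among effectors, Rapgef1, an exchange factor downstream of Trk receptors, was higher, with 22.7, 34.5 and 49.7 against 13.7, 18 and 15.

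Axon guidance genes had a region in 58 of 100 members, 13 only higher, 31 only lower and 14 both, with a median log2 ratio of -1.42. Of the 100, 62 belonged to the longest class of genes. Among the 37 receptors, 5 had only higher, 14 only lower and 3 both. The slit receptor Robo1 had 4 lower regions, the clearest with 4.53, 4.5 and 3.55 after PL against 16.8, 14 and 16.1 in control (chromosome 16, 73001961 to 73002180), and Dcc, the netrin receptor, had 6.35, 1.5 and 3.55 against 18.9, 18 and 15.6 (chromosome 18, 71525541 to 71525800). Epha5, an ephrin receptor, had 3.63, 4.5 and 10.6 against 23.2, 25.4 and 19.6, 893 bp before its start (chromosome 5, 84847201 to 84847400). In these lower regions the highest PL value stayed below the lowest control.

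Other ephrin receptors were higher. Epha8 had 29.9, 28.5 and 26.6 after PL against 10.5, 15.4 and 6.92 in control in its promoter (chromosome 4, 136510921 to 136511180), and Ephb1 had 3 higher regions, for example 17.2, 16.5 and 21.3 against 5.26, 7.35 and 6.34. For 1 of the 3 Ephb1 regions, with 33.6, 28.5 and 33.7 against 9.47, 19.4 and 17.3, the authors' deposited adjusted p was 0.116. Epha2 had 34.4, 61.5 and 30.2 against 14.7, 18.7 and 17.9. So the family held only-higher (Epha2, Epha8, Ephb1), only-lower (Epha3, Epha4, Epha5) and both (Ephb2) members. Among ligands, Sema3f was 3.52-fold higher, with 26.3, 29.99 and 14.2 against 3.16, 9.35 and 7.49, and Slit3 and Slit2 were lower, with 17.2, 7.5 and 14.2 against 37.9, 38.1 and 33.4 and 4.53, 6.0 and 5.32 against 19.99, 18 and 15.6. Among effectors, Mical2 (an oxidase that disassembles actin) had 56.2, 85.5 and 85.2 against 34.7, 42.8 and 42.1, Kalrn (kalirin, a guanine nucleotide exchange factor) 25.4, 33 and 40.8 against 11.6, 9.35 and 16.7, and the adaptor Nck2 13.6, 6.0 and 12.4 against 37.9, 33.4 and 33.4. Nck2 was lower and the other 2 higher, each with groups apart.

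Cytokine and JAK-STAT signalling had a region in 14 of 43 members, 6 only higher, 7 only lower and 1 both, with a median log2 ratio of -1.45. All 4 of the 12 ligands with a region had only a higher one, and none of the 10 receptors had only higher ones. Among ligands, Ccl2 is given above, and Osm (oncostatin M) had 16.3, 16.5 and 24.8 after PL against 7.36, 10.02 and 5.19 in control, 622 bp after its start. Clcf1 (a ligand of the ciliary neurotrophic factor receptor) had 37.2, 25.5 and 30.2 against 18.9, 12.7 and 15, and Csf1 (a growth factor of macrophages and microglia) 19.95, 21 and 14.2 against 7.36, 10.02 and 5.76. Ccl2 was 2.88-fold, Osm 2.55-fold, Clcf1 1.99-fold and Csf1 2.38-fold higher, with the groups apart. None of the 12 ligands belonged to the longest class of genes, and in shorter genes higher regions were the more frequent. The authors' deposited table gives an adjusted p of 0.00931 for Clcf1 and 0.0133 for Csf1.

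Among receptors, Lifr (of leukaemia inhibitory factor) had 29.9, 12 and 19.5 after PL against 66.3, 54.1 and 52.4 in control (chromosome 15, 7102361 to 7102820), and Il6st (gp130, the signalling chain shared by this family) had 5.44, 3.0 and 1.77 against 16.8, 14 and 15 (chromosome 13, 113289701 to 113289920). Il1r1, the receptor of interleukin 1, had 8.16, 6.0 and 1.77 against 22.1, 17.4 and 16.7. All 3 were lower in every pool, Lifr by 2.81-fold, Il6st by 4.49-fold and Il1r1 by 3.53-fold. Cntfr had a higher region with 27.2, 33 and 21.3 against 12.6, 16 and 11 and a lower one with 9.97, 6.0 and 7.1 against 19.99, 22 and 27.7. Of the signal transducers, Stat5b had 3 lower regions, 1 of them with 2.72, 3.0 and 10.6 against 17.9, 18 and 15.6, and Stat3, which carries the injury signal to the nucleus, had 1 with 9.07, 15 and 10.6 against 38.9, 35.4 and 23 (chromosome 11, 100773641 to 100773840). Stat4 and the kinase Tyk2 were higher, with 23.6, 15 and 31.9 against 7.36, 8.02 and 11 and 29.9, 19.5 and 23.1 against 14.7, 10.7 and 6.92. No region of these genes had overlapping groups.

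**Figure D4:**
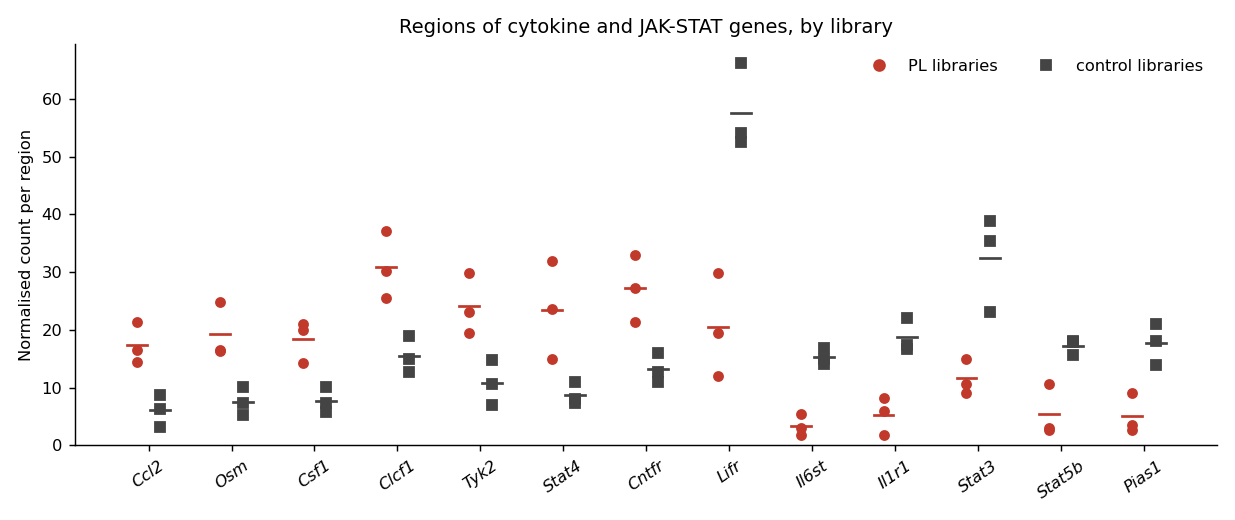
Normalised count of the region with the smallest deposited adjusted p in the stated direction, for 13 cytokine and JAK-STAT genes; red circles are the 3 PL libraries, dark squares the 3 control libraries, and lines the group means (n = 3). Ligands Ccl2, Osm, Csf1 and Clcf1, the kinase Tyk2, Stat4 and 1 Cntfr region are higher after PL, and Lifr, Il6st, Il1r1, Stat3, Stat5b and Pias1 are lower.

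Calcium and cyclic AMP signalling had a region in 51 of 83 members, 15 only higher, 18 only lower and 18 both (median log2 ratio -1.19), and 68 were in the longest class of genes. Stim2, the calcium sensor of the endoplasmic reticulum, had 1.81, 7.5 and 1.77 after PL against 18.9, 16 and 18.4 in control (chromosome 5, 54471061 to 54471320), and Ryr3, a release channel, 4.53, 0 and 5.32 against 16.8, 16.7 and 15.6. Cacna1i, a T-type calcium channel, was 4.19-fold higher, with 11.8, 15 and 14.2 against 3.16, 2.0 and 4.61. Among enzymes, the calmodulin-dependent kinase kinase Camkk1 had 18.1, 13.5 and 14.2 against 6.31, 5.34 and 1.15 and protein kinase C alpha (Prkca), which had 2 higher and 5 lower regions, 8.16, 15 and 17.7 against 32.6, 39.4 and 32.3. Stim2, Ryr3 and Prkca were lower and Cacna1i and Camkk1 higher, each with groups apart.

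PI3K, mTOR and insulin signalling had a region in 17 of 35 members (7 only higher, 4 only lower, 6 both, median log2 ratio -1.16). The longest class of genes held 24 of the 35. The kinase Mtor had 16.3, 22.5 and 19.5 after PL against 7.36, 8.02 and 6.34 in control, and Rictor, of mTOR complex 2, with 3 higher and 3 lower regions, had 17.2, 15 and 14.2 against 5.26, 2.67 and 6.92 in a higher one. Igf1r, the receptor of insulin-like growth factor 1, had a higher region with 77.1, 82.5 and 76.3 against 48.4, 56.8 and 40.3 and a lower one with 26.3, 33 and 30.2 against 59.97, 56.8 and 50.7. Phlpp1, a phosphatase of Akt, was lower, with 10.9, 13.5 and 16 against 34.7, 40.1 and 32.3. The groups were apart in these regions. Igf1r differed by less than 2-fold in the 2 regions given, while its 2 higher and 4 lower regions had log2 ratios from -1.68 to 0.81.

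BMP and TGF-beta signalling had a region in 19 of 43 members, 8 only higher, 6 only lower and 5 both. The median log2 ratio was -1.07, as over all regions in genes, and 26 members were in the longest class of genes. Bmp7 was higher, with 23.6, 21 and 37.3 after PL against 11.6, 8.68 and 12.1 in control, and Bmp5 had a lower region with 16.3, 9.0 and 3.55 against 31.6, 31.4 and 34.6. Tgfbr2, a receptor of TGF-beta, had 15.4, 21 and 31.9 against 51.6, 52.1 and 51.9 (chromosome 9, 116080141 to 116080480), and Smurf2, which degrades its receptors, 4.53, 3.0 and 5.32 against 22.1, 16 and 21.3. The Tgfbr2 controls lay within 1 count of each other. Wnt signalling had a region in 20 of 49 members (5 only higher, 10 only lower, 5 both, median log2 ratio -1.35), and 22 were in the longest class. The co-receptor Lrp6 had 2 lower regions, the stronger with 6.35, 4.5 and 5.32 against 22.1, 21.4 and 15.6, and Lrp5 a higher one with 46.2, 58.5 and 92.3 against 30.5, 36.7 and 31.7. Lrp5 was highest in the third-listed PL library, and Ctnnb1 (beta-catenin), with 45.3, 59.98 and 21.3 against 18.9, 24.7 and 21.3, had overlapping groups.

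JNK and axon injury signalling had a region in 17 of 33 members, 3 only higher, 10 only lower and 4 both (median log2 ratio -1.40). The longest class of genes held 17 of the 33. Map4k4, a kinase upstream of JNK, was lower, with 22.7, 36 and 21.3 after PL against 53.7, 57.4 and 59.4 in control (chromosome 1, 40030621 to 40030880), as was Dync1h1, the heavy chain of the retrograde motor dynein, with 13.6, 12 and 8.87 against 33.7, 27.4 and 34.6. The scaffold Mapk8ip1 (JIP1) was higher in its promoter, with 25.4, 19.5 and 28.4 against 13.7, 10.7 and 8.07 at 270 bp before the start. Nmnat2, an enzyme of NAD synthesis that preserves axons, had a lower region 4689 bp after its start with 2.72, 1.5 and 7.1 against 13.7, 14 and 15.6 and a higher one with 30.8, 29.99 and 23.1 against 7.36, 11.4 and 11.5 at 141519 bp. The groups were apart in all 5 regions.

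Axonal transport and microtubule genes had a region in 29 of 49 members (9 only higher, 9 only lower, 11 both, median log2 ratio -1.23). The longest class of genes held 34 of the 49. The kinesin Kif21a had a higher region with 42.6, 19.5 and 35.5 after PL against 15.8, 11.4 and 13.8 in control, and Kif13a was lower, with 14.5, 18 and 1.77 against 32.6, 35.4 and 33.4. Mapre2, a protein of growing microtubule ends, was 6.65-fold lower in 1 of its regions, with 4.53, 1.5 and 1.77 against 19.99, 14 and 17.9. The number of only-higher members equalled that of only-lower ones. Cell adhesion and matrix genes had a region in 69 of 98 members (24 only higher, 21 only lower, 24 both; median log2 ratio -1.25), and 77 were in the longest class. Gpc3, a glypican, had 16.3, 15 and 16 against 5.26, 4.01 and 1.73 (chromosome X, 49920381 to 49920600), and Cntn6, a contactin, 2.72, 4.5 and 0 against 14.7, 16.7 and 16.1 (chromosome 6, 104546441 to 104546680). Gpc3 was 4.3-fold higher and Cntn6 6.59-fold lower.

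Synaptic genes had a region in 40 of 78 members, 18 only higher, 12 only lower and 10 both, with a median log2 ratio of 0.97. Of the 78, 66 belonged to the longest class, in which 50.4% of all protein-coding genes had a region. Rims1, a scaffold of the release site, had 12.7, 34.5 and 24.8 after PL against 6.31, 5.34 and 4.61 in control (chromosome 1, 22767441 to 22767660). Grm7, a metabotropic glutamate receptor, had 30.8, 37.5 and 26.6 against 13.7, 12 and 15 in the higher region with its smallest deposited adjusted p. Gria2, a subunit of AMPA receptors, was lower, with 4.53, 0 and 3.55 against 14.7, 12.7 and 17.9. Ion channel genes had a region in 35 of 69 members (16 only higher, 11 only lower, 8 both, median log2 ratio -1.40). Their members in the longest class numbered 47. Scn10a, the sodium channel Nav1.8 of nociceptors, had 2 higher regions, with 16.3, 21 and 14.2 against 5.26, 9.35 and 4.03 310 bp before its start and 13.6, 18 and 14.2 against 2.1, 4.01 and 6.34 in its body. P2rx3, an ATP receptor of nociceptors, was higher as well, with 15.4, 13.5 and 14.2 against 4.21, 2.67 and 6.34. Kcnq3, of the M-current, was 4.01-fold higher, with 16.3, 21 and 21.3 against 6.31, 6.01 and 2.31, and Asic3, an acid-sensing channel, was 3.25-fold lower in its promoter, with 9.97, 6.0 and 3.55 against 21, 18.7 and 23.6.

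Genes of DNA methylation and base excision had a region in 8 of 36 members, 4 only higher (Dnmt3a, Dnmt3l, Mbd5 and Mbd6), 3 only lower (Idh2, Parp1 and Zbtb38) and Tet3 both, with a median log2 ratio of 0.74. Mbd5, a methyl-CpG-binding domain protein, had 83.4, 99 and 94 after PL against 49.4, 52.8 and 50.7 in control (chromosome 2, 48827781 to 48828080), and Mbd6 55.3, 34.5 and 40.8 against 21, 21.4 and 17.9. The de novo methyltransferase Dnmt3a had 2 higher regions, with 50.8, 55.5 and 101 against 41, 37.4 and 46.1 and 76.2, 75 and 44.4 against 42.1, 38.7 and 44.4, the second with a PL value within the controls. Parp1, which senses DNA breaks, was lower, with 9.97, 9.0 and 1.77 against 24.2, 28.7 and 24.2.

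Histone and chromatin enzymes had a region in 32 of 60 members, 5 only higher, 13 only lower and 14 both (median log2 ratio -1.42). The longest class of genes held 37 of the 60. Among the 22 acetylation genes, 11 had a region, of which 5 had only lower ones, 6 had both and 0 only higher. Ep300, an acetyltransferase, had 2 lower regions, with 9.97, 9.0 and 16 after PL against 28.4, 26.7 and 30.6 in control and 2.72, 3.0 and 8.87 against 16.8, 12.7 and 17.9, and Hdac9, a deacetylase, 5.44, 4.5 and 8.87 against 22.1, 18 and 24.2. Crebbp, a relative of Ep300, had a higher region with 29.9, 34.5 and 37.3 against 11.6, 16.7 and 15.6. Kdm6a, a histone demethylase, was 7.8-fold lower, with 0.91, 3.0 and 1.77 against 15.8, 14.7 and 13.8 (chromosome X, 17768641 to 17768860). All PL pools were below the controls in the lower regions.

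Lipid and mitochondrial genes had a region in 18 of 42 members (5 only higher, 6 only lower, 7 both, median log2 ratio 0.92). Autophagy genes had one in 6 of 27 (2 only higher, 2 only lower, 2 both, median log2 ratio 0.88). The longest class of genes held 26 of the 42 and 11 of the 27. Cpt1a, which brings fatty acids into mitochondria, had 27.2, 28.5 and 23.1 after PL against 11.6, 8.02 and 12.1 in control in a higher region. Tfeb, a regulator of lysosome genes, had a lower region with 5.44, 3.0 and 1.77 against 16.8, 16.7 and 17.9 and a higher one at 47890661 with 35.4, 40.5 and 44.4 against 21, 20.04 and 17.9. Both Tfeb regions had the groups apart.

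Markers of the cell types were examined for their own regions, which say where 5-hmC differed and nothing of cell numbers. Sensory neuron markers had a region in 10 of 32 members (4 only higher, 2 only lower, 4 both), glial markers in 5 of 25 (3, 1 and 1) and vascular and connective markers in 6 of 19 (2, 4 and 0). None of 27 immune cell markers and none of 28 housekeeping genes had one, and 4 and 0 of these lists were in the longest class of genes, where regions were most frequent. Runx3, a factor of proprioceptors, had 42.6, 63 and 44.4 after PL against 27.4, 18.7 and 23.6 in control. The myelin gene Mbp had 79.8, 81 and 117 against 62.1, 55.4 and 49.6, and Pmp22, also of myelin, 6.35, 4.5 and 10.6 against 19.99, 18.7 and 22.5 before its start. Mbp was 1.66-fold higher and Pmp22 2.85-fold lower. Of vascular genes, Flt1 (a receptor of vascular endothelial growth factor) was lower, with 3.63, 7.5 and 10.6 against 21, 22 and 18.4, and Vwf (von Willebrand factor) higher, with 24.5, 21 and 24.8 against 8.42, 9.35 and 10.4. What cell types contributed to any region was not tested.

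**Figure D5:**
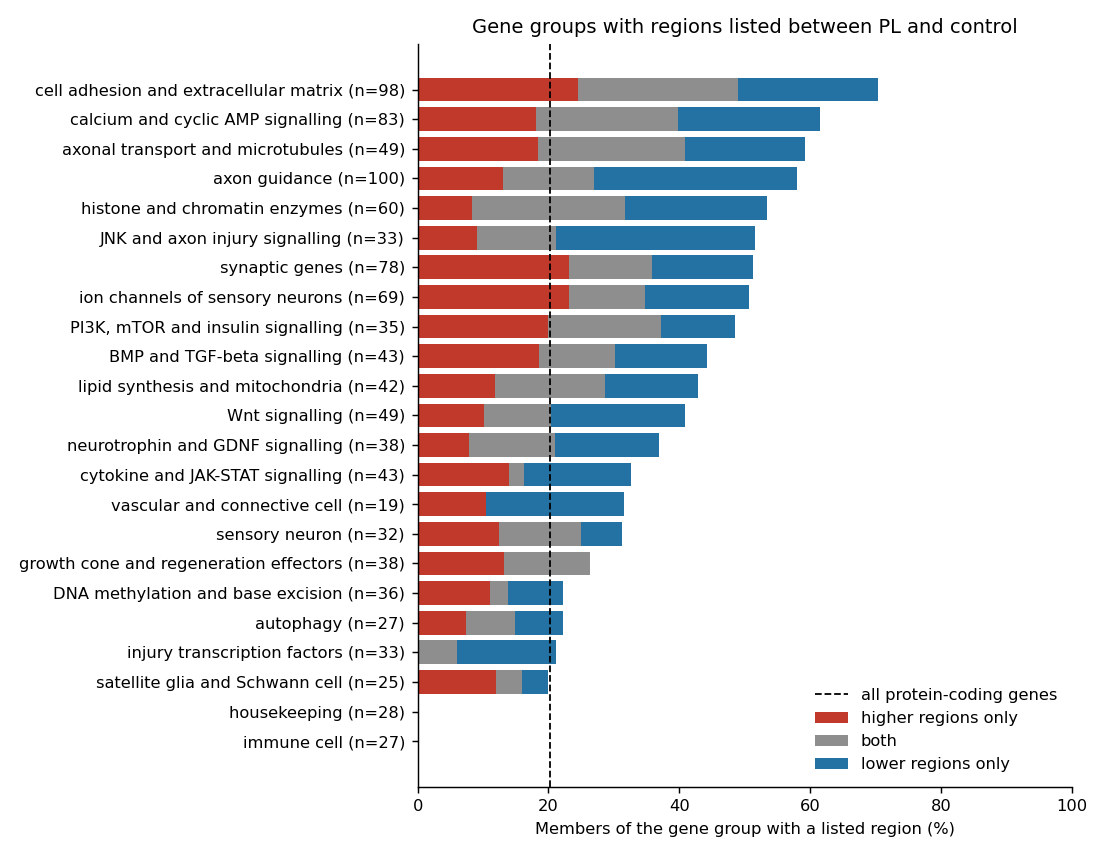
Percent of the members of each gene group with a listed region (x axis), divided into members with higher regions only (red), both (grey) and lower regions only (blue); n is the number of members and the dashed line is all protein-coding genes (20.2%). The share is highest for adhesion and matrix genes (69 of 98) and calcium and cyclic AMP signalling (51 of 83), groups with many long genes, and 0 for immune markers and housekeeping genes.

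Regions of the other comparisons that overlap those named above, in part or in full, are set beside these values. The table of DCL against control shares the control libraries and that of PL against DCL shares the PL libraries, and each table was normalised separately, so no overlap is counted. Lrch3 was listed in all 3. Between DCL and control, Lrch3 had 15.7, 5.97 and 11.2 after DCL against 28.3, 25.4 and 24.6 in control (32913401 to 32913620). Between PL and DCL it had 8.68, 8.23 and 6.13 after PL against 32.8, 23.3 and 19.99 after DCL (32913161 to 32913400). Each stretch overlaps the PL region but not the other stretch, so their DCL values are not of the same sequence. Epha2, higher after PL, was higher after DCL too, with 154, 43.3 and 57.9 against 33.1, 40.3 and 41.1, and lower after PL than after DCL, with 18.6, 19.5 and 20.8 against 67.9, 24.4 and 25.8. The first-listed DCL library stood far above the others there.

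Several regions lower after PL than in control were also lower after PL than after DCL. Stat3 had 12.4, 21.6 and 12.3 after PL against 25.8, 35.4 and 33.2 after DCL, and Nol9 2.48, 1.03 and 6.13 against 16.4, 21 and 12.2. Tgfbr2 had 10.5, 14.4 and 22.1 against 32.8, 36.6 and 30.7. In these the DCL libraries were above the PL libraries without overlap. Others were lower after both lesions, as in Tet3, with 18.8, 10.4 and 15.1 after DCL against 31.2, 37.2 and 33.1 in control, and Nmnat2, with 0, 8.96 and 7.24 against 17.5, 16.7 and 19.2. The higher Bdnf promoter region had 21.1, 19.5 and 13.5 after PL against 7.02, 3.32 and 6.83 after DCL. Because the tables share libraries, these values are no separate evidence on the PL difference.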

How the data were processed

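5-hmC enrichment libraries of dorsal root ganglia were compared between PL and control, 3 pools each. Reads were processed with tools listed, per the submitters' processing notes, as MACS2 2.1.1, Bowtie2 2.2.0 and SAMtools 0.1.19, on mm9, with no role stated. The program that called the regions is not given in the sources used here. All deposited tables list selected regions only, each with the normalised count of every library, the group average as a signal, its enrichment ratio, a log2 fold change, and a p-value and an adjusted p-value of the authors. The values and the direction come from the deposited group averages, and log2 ratios of those averages use no pseudocount. Regions on chromosome M, in Pericentromere, Sfi1 and Rn45s were set aside. No model was fitted and no list was tested, because the regions were selected for differing. Groups are called apart where every library of 1 group lies beyond every library of the other. Cells of the tables give library values without replicate numbers, so they are called by listed order.

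Genes were named by these rules: the smallest adjusted p by annotation class, the largest log2 ratios, the genes with the most regions in 1 or both directions, the members with the smallest adjusted p in each role of a list, and 15 injury genes in any case. Genes outside these rules are marked as chosen after their values were seen. Some named genes and 1 list are not reported here. The members and lists were chosen with earlier results of these data known. Of 4734 gene names, 4726 (99.8%) matched the RefSeq table, older symbols through its synonyms. Only the recovery of the value of 1 read was tested on simulated counts. Depth is unknown beyond the value of 1 read; the 3 input libraries were not analysed here. Alternatives were the adjusted p, fold and level thresholds, high-copy sequence kept, a pseudocount of 1, promoter definition and leaving out each library. Python 3.11.15, pandas 2.3.3, numpy 2.4.6, scipy 1.17.1 and matplotlib 3.10.9 were used.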

Additional observations from a re-analysis of the deposited data

Results flagged for a closer look

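The high-copy sequence set aside, which enters none of the counts of regions and genes, held listed regions too, and all 108 had a higher group average after PL. In the third-listed PL library the median was 2528 over mitochondrial regions, where the controls had medians of 259 to 403. The same library had 249 over pericentromeric regions against 82.1, 62.8 and 70.6, and 115 over Sfi1 regions against 43.1, 40.1 and 42.7. The first-listed PL library had 401, 111 and 49.0 over these 3 kinds of sequence, the 401 within the control medians, so the PL pools did not share 1 level. What sets these levels was not tested.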

How the results depend on the processing

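With the deposited adjusted p under 0.01, 2805 higher and 3142 lower regions and 1531 and 1670 genes were left, in place of 6069 and 6067 regions and 2907 and 2762 genes. The share of regions in promoters was 7.78% with all 3 promoter classes and 2.32% without Promoter3k. Leaving out 1 library at a time, with the averages of the others at least 1.5-fold apart in the same direction, left 5928 to 6063 higher and 6063 to 6067 lower regions, and 2851 to 2905 and 2760 to 2762 genes. These counts have no test of their own, so a lower count at a stricter threshold follows from its construction.

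With the adjusted p under 0.01 the share of higher regions was 47.2% over all regions, 38.3% in genes of 200 to 500 kb and 49.4% in the last of 5 parts of the gene. At 2-fold it was 46.7%, 37.1% and 50.1%, and 37.0% in the first part. For these position shares both settings were added after seeing the data, as was, for all results, the setting aside of regions with a library above 200 (6040 higher and 6067 lower left). Of 342 named regions with a finite ratio, 2 moved by more than the library spread with a pseudocount of 1 and 1 without the third PL library, and 0 changed direction. That spread was computed with the left-out library in it, so a library far from the others widens it. The count therefore cannot show how many named regions rest on the third PL library, as the Nav2 regions given above did. Of the counts of 24 lists, 8 moved by more than 1.5 times at an adjusted p under 0.01, and 0 did when only gene-body regions were used. No paired analysis was possible because the library values carry no replicate numbers and no model was fitted. Lower regions with 4 to 7 PL reads have imprecise ratios, and intervals for counting error were not computed.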
